A study of Mus musculus with 24 samples.

Results

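The effect of gentamicin on gene expression in the presence of pioglitazone was measured in 6 of the 24 RNA sequencing libraries of a study of the mouse organ of Corti (OC), the sensory epithelium of the cochlea. Explants from C57BL/6N pups of both sexes at postnatal day 5 were kept for 24 h in medium without drug and then exposed for 6 h either to 10 µM pioglitazone together with 50 µM gentamicin (PIO + GM, 3 libraries) or to 10 µM pioglitazone alone (PIO, 3 libraries). The libraries were chosen by their labels and not by any measured value. All genes were examined, and the question addressed was what gentamicin added when pioglitazone was already present. The remaining 18 libraries held explants without drug (CTRL) and with 50 µM gentamicin alone (GM) at 6 h and 24 h, and PIO and PIO + GM at 24 h, each in triplicate. They shared the estimate of spread, and of them GM against CTRL at 6 h and PIO + GM against PIO at 24 h were used for direct comparison. Each library was made from a pool of 6 OCs, so that no single animal can be followed. It is not stated whether the replicates came from separate litters, and the p-values measure the spread between these pools. Whole explants were sequenced, and in such tissue fewer cells of a type and less RNA per cell cannot be told apart.

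Gentamicin is an aminoglycoside antibiotic that enters the hair cells of the inner ear and can kill them. Pioglitazone switches on PPAR-γ, a nuclear receptor that activates genes of lipid handling and dampens inflammatory gene expression in many tissues. Type I interferons act through the receptor subunits IFNAR1 and IFNAR2, the kinases JAK1 and TYK2, and a complex of STAT proteins with IRF9. This complex binds the interferon-stimulated response element (ISRE) in promoters and switches on several families of genes. Among them are the IFIT proteins and OAS enzymes that act on viral RNA, the guanylate-binding proteins (GBPs) and immunity-related GTPases that attack membranes around pathogens, the ubiquitin-like modifier ISG15 with the enzymes that attach and remove it, and sensors of foreign RNA and DNA.

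Promoters of 5 genes of this programme are shown because genes of these families made up much of the lowest end of the p-value list described below. The 5 were picked among genes whose promoter held the ISRE core. Ifit2, the gene with the lowest p, had 0 matches in its 2 promoters, and the promoters of Herc6 and Ifi44 had 0 as well. The ISRE core was searched as GAAA, 2 bases of any kind and GAAA again, on either strand (TTTC, 2 bases and TTTC on the reverse), in RefSeq promoters of 300 bases that run from 250 bases before to 50 bases after the start site. Each line gives the 170 bases directly before the start site (RefSeq, GRCm38.p6), 5′ to 3′ on the strand of the gene, with every match in capitals. The Isg15 stretch is chr4:156200819-156200988 on the minus strand, and its 3 matches overlap and begin 66 to 78 bases before the start site. The Gbp2 stretch is chr3:142620493-142620662 and that of Gbp7 is chr3:142530166-142530335, both on the plus strand, with the match beginning 59 and 53 bases before the start site, respectively. The Ifit3 stretch is chr19:34583359-34583528 on the plus strand, with matches that begin 156 and 122 bases before the start site. The Rsad2 stretch is chr12:26456453-26456622 on the minus strand, with a match that begins 120 bases before the start site.
Isg15: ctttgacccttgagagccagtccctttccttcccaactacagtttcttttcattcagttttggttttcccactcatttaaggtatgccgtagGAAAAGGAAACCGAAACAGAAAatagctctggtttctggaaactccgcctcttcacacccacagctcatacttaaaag
Gbp2: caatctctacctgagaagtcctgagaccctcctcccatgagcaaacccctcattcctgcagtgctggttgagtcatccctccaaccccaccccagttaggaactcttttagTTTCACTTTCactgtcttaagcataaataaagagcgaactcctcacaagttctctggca
Gbp7: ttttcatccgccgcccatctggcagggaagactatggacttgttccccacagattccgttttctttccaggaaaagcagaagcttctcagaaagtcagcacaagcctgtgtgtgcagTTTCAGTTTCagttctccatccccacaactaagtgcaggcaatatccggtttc
Ifit3: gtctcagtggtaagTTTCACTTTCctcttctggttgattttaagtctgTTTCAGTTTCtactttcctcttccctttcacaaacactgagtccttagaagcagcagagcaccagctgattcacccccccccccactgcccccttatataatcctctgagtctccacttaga
Rsad2: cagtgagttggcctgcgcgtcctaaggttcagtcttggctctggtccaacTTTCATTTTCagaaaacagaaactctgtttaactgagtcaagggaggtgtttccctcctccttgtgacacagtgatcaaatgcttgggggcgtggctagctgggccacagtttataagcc
A promoter entry was found for 64 of the 89 tested genes on the 4 interferon-induced gene lists used below, and the core was present in 34 of them (53.1%). It was present in 458 of the 12624 tested genes with an entry (3.63%) and in 1131 of all 32851 promoters (3.44%). By list, it was found in 9 of 10 GTPase genes, 17 of 35 antiviral effector genes, 6 of 12 nucleic acid sensor genes and 2 of 7 genes of ISG15 conjugation and interferon-induced PARPs. Such a match describes the letters of the promoter and not binding of a factor.

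The 6 libraries held 7211357 to 13849198 counted reads (median 11324855), so that 3 reads corresponded to 0.217 to 0.416 CPM, the count of a gene scaled to the size of its library. Such floors cover counting error only, whereas the intervals of fold changes given below rest on the spread between pools. Hair cell markers marked the tissue as labelled: all 31 passed the filter on low counts and none was at 0 in any of the 6 libraries. The libraries differed in their relation to base composition. Relative to the mean of the 12 libraries at 6 h, log2 expression was lower the higher the GC content of the gene in PIO + GM replicates 2 and 3 (Spearman's correlation across genes −0.567 and −0.639) and in PIO replicate 2 (−0.649). No such decline was present in PIO + GM replicate 1 (0.251) or PIO replicates 1 and 3 (0.113 and 0.419). Because 2 of these 3 libraries were in the PIO + GM group, the fold changes themselves declined with GC content (Spearman's correlation −0.469 across 15390 genes with a GC value), and the relation was −0.05 once the trend of each library had been removed. For many of the GC-rich genes named below as lower with gentamicin, values are therefore also given with that trend removed. They are not given for every list.

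**Figure D1:**
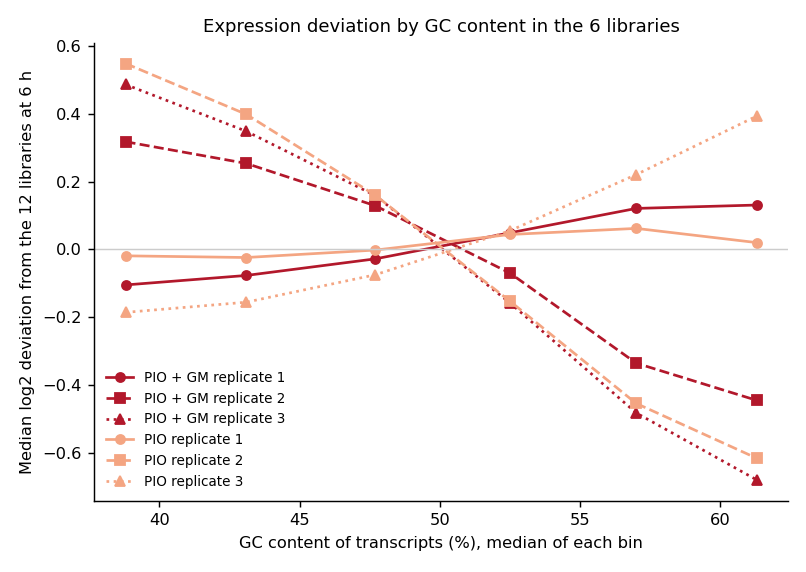
Median log2 deviation of expression from the mean of the 12 libraries at 6 h (y axis) for genes binned by GC content of their transcripts (x axis, percent), one line for each of the 6 libraries. PIO + GM replicates 2 and 3 and PIO replicate 2 slope down, from 0.318 to 0.549 in the bin lowest in GC to −0.446 to −0.681 in the highest, and the other 3 libraries do not.

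No gene passed the threshold in PIO + GM against PIO at 6 h. Of 16317 genes tested with edgeR's quasi-likelihood test, 0 had a Benjamini-Hochberg adjusted p under 0.05 (0.0%), and the lowest adjusted p was 0.998. At an unadjusted p under 0.05 there were 499 genes (3.06%), of which 190 were higher (1.16%) and 309 lower (1.89%) with gentamicin. All 3 PIO + GM libraries lay above all 3 PIO libraries in 278 genes (1.7%) and below them in 273 (1.67%). A log2 fold change above 0 was found for 50.3% of genes, and the median over all genes was 0.0. DESeq2 called 1 gene, Ifit2 (adjusted p = 0.0485), whereas limma-voom and edgeR's likelihood ratio test called 0. The count at an unadjusted p rested on a few libraries. Without PIO replicate 2 it was 1498 higher and 1962 lower, and without PIO + GM replicate 1 it was 467 and 1598. It came to 101 higher and 16 lower when only the 6 libraries were fitted.

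The genes at the top of this list are given here as values, since each gene in the comparison had an adjusted p of 0.998 or higher (edgeR). Of the 10 genes with the lowest p-values 7 were on the 4 interferon-induced gene lists, as were 11 of the lowest 20, 25 of the lowest 50 and 36 of the lowest 100. Ifit2, an interferon-induced protein that binds RNA and blocks translation, had the lowest p (0.00015). It measured 53, 38.1 and 19.6 CPM in PIO + GM replicates 1 to 3 and 12.6, 12.6 and 7.81 CPM in PIO, a log2 fold change of 1.75 ± 0.38 (SE; 95% interval 1.02 to 2.49). The lowest PIO + GM library was above the highest PIO library. Trim12a, a member of the TRIM family, measured 15.8, 12.0 and 16.2 CPM against 7.72, 8.58 and 8.97 CPM (log2 fold change 0.80 ± 0.18, SE). Parp9, an interferon-induced ADP-ribosyltransferase family member, measured 56.5, 37.5 and 38.5 CPM against 24.0, 22.1 and 24.7 CPM (0.90 ± 0.22, SE). The groups did not overlap for either gene. The gene bodies lie at chr19:34550550-34576534 (Ifit2), chr7:104299893-104315558 (Trim12a) and chr16:35938470-35972621 (Parp9) in GRCm38.p6.

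**Figure D2:**
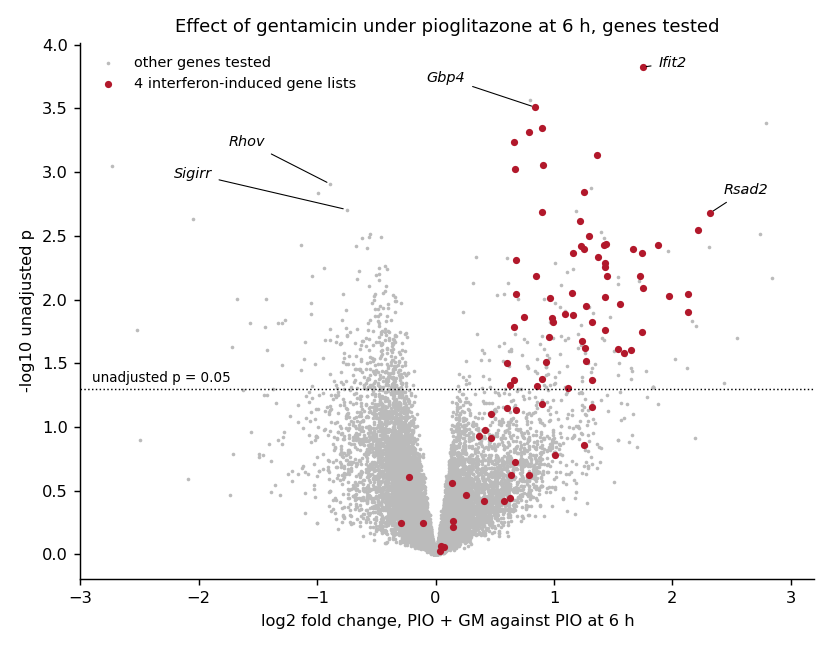
Log2 fold change of PIO + GM against PIO at 6 h (x axis) against −log10 of the unadjusted p (y axis) for the genes tested, with members of the 4 interferon-induced gene lists in red and the other genes in grey. Of the 89 red points 86 lie to the right of 0 and 63 of them lie above the dotted line at an unadjusted 0.05, where 190 of all genes lie on that side; no point passes the adjusted threshold.

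Genes induced by interferon were higher as a group with gentamicin than with pioglitazone alone. The 4 lists together named 90 genes, of which 89 were tested; Ifi44l did not pass the filter. Of the 89, 86 had a log2 fold change above 0 and 3 below, with a median of 0.99 and a range from −0.29 to 2.32, while the median over all genes was 0.0. An unadjusted p under 0.05 was reached by 63 in the higher direction and 0 in the lower direction, against the background of 1.16% and 1.89%, and in 47 the PIO + GM libraries lay above all PIO libraries, against 1.7%. None of them passed the adjusted threshold. The lists were chosen with earlier results of these data known. Their members were measured in the same 3 PIO + GM and 3 PIO libraries, so that these counts are not independent observations. The mean log2 CPM over the 89 genes was 4.49, 3.68 and 3.42 in PIO + GM replicates 1 to 3, and 3.16, 2.77 and 2.90 in PIO. All 3 PIO + GM libraries were above all 3 PIO libraries, with replicate 1 farthest above. Without that library the median was 0.67, 80 of 89 genes were above 0, and 20 were higher and 1 lower at an unadjusted p under 0.05, against 2.81% and 9.62% of all genes without that library. With the GC trend removed the median was 1.00 and 63 genes were higher at that level, against 1.22% of all genes. Without the 3 libraries in which expression declined with GC content, which left 1 PIO + GM and 2 PIO libraries, the median was 1.54.

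**Figure D3:**
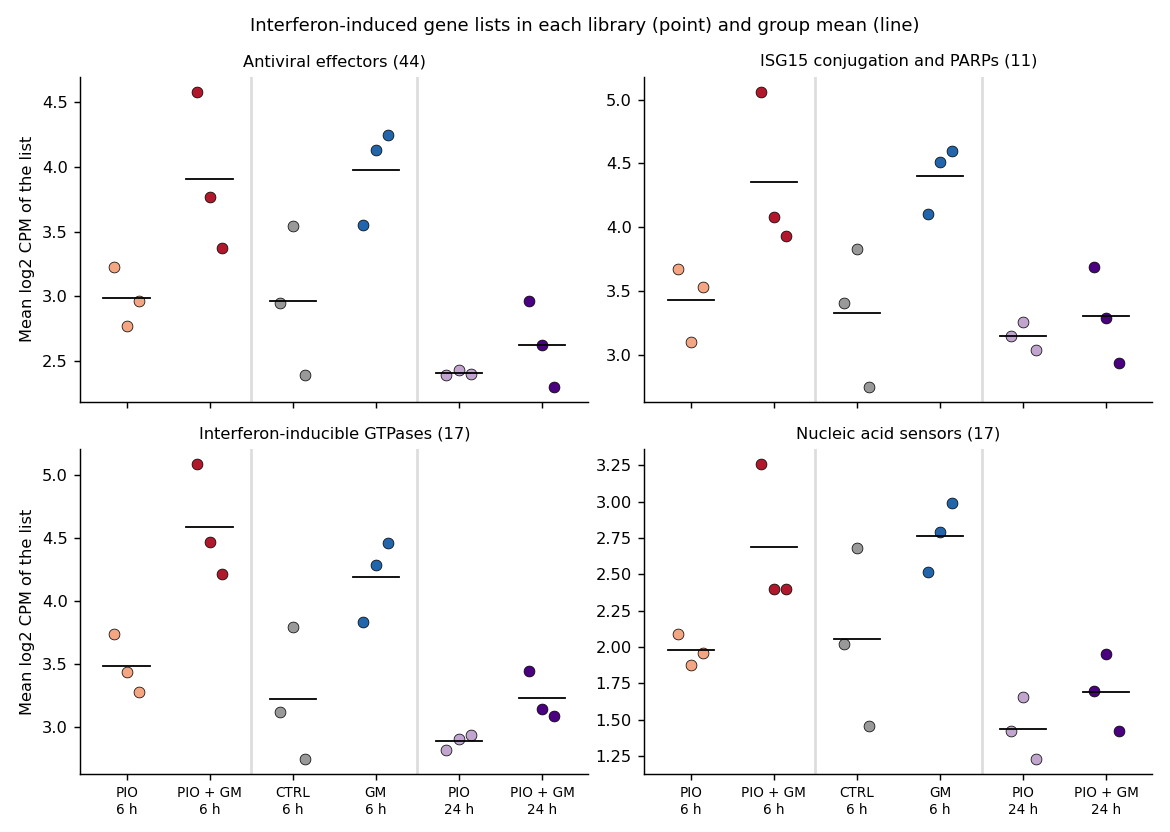
Mean log2 CPM of each of the 4 interferon-induced gene lists (y axis) by group (x axis), with points for the 3 libraries of a group and a line for their mean. At 6 h the PIO + GM libraries lie above the PIO libraries in every list, for the GTPases at 4.22 to 5.09 against 3.28 to 3.74, and GM and CTRL for the antiviral effectors at 3.55 to 4.25 against 2.39 to 3.54; at 24 h the PIO + GM and PIO libraries overlap in every list except the GTPases.

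The interferon-inducible GTPases separated in every member. All 17 genes on the list were tested, and all 17 had an unadjusted p under 0.05 in the higher direction, against 1.16% of all genes. In all 17 the lowest PIO + GM library was above the highest PIO library, against 1.7% of all genes. The median log2 fold change was 1.15 and the range was 0.67 to 2.13. Gbp4 measured 24.1, 22.6 and 25.9 CPM in PIO + GM and 17.5, 11.0 and 12.1 CPM in PIO (log2 fold change 0.84 ± 0.19, SE). Gbp6 measured 135, 117 and 135 CPM against 79.8, 68.1 and 76 CPM (0.79 ± 0.19, SE). For both genes the 3 PIO + GM libraries were close to each other, and so was replicate 1, which stood apart elsewhere. The genes next to them in the cluster on chromosome 5 had log2 fold changes of like size, with 0.67 for Gbp9, 0.91 for Gbp8 and 0.68 for Gbp10. The genes of the cluster on chromosome 3 had higher fold changes and a wider spread. Gbp2 measured 57.4, 29.0 and 15.8 CPM against 14.0, 14.4 and 9.84 CPM (1.43 ± 0.46, SE). Gbp5 measured 16.4, 3.21 and 2.84 CPM against 2.28, 1.91 and 1.01 CPM (2.13 ± 0.78, SE), and its value in replicate 1 was the only one well above the PIO range. Gbp3 and Gbp7 had fold changes of 1.43 and 1.25.

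The immunity-related GTPases, which mark and disrupt the vacuoles of intracellular parasites, were higher too. Irgm1 measured 121, 94.7 and 54.3 CPM in PIO + GM and 48.8, 50.9 and 37.4 CPM in PIO (log2 fold change 0.98 ± 0.36, SE). Igtp measured 36.6, 15.7 and 12.2 CPM against 12.1, 9.00 and 8.03 CPM (1.15 ± 0.40, SE), and replicate 3 was barely above the highest PIO library. Ifi47 measured 13.0, 5.46 and 3.78 CPM against 2.72, 2.33 and 1.74 CPM (1.73 ± 0.57, SE). In each of the 3 genes PIO + GM replicate 1 was highest and replicate 3 lowest of its group. Several of these genes have near-identical copies. Of all 76-base stretches of their transcripts, 98.3% for Gvin1, 87.6% for Tgtp1, 85.9% for Gbp6, 85% for Tgtp2 and 75.4% for Gbp10 also occurred in another gene. How reads with several matches were counted is not stated, so the split of reads between such copies is uncertain. Over the 88 listed genes with a transcript sequence, 14 shared over 20% of stretches and 45 shared none. Among the other genes named here these shares were 47.3% for Oas1a, 44.3% for Oas1g, 41.7% for Ifitm2 and 22.3% for Herc6.

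**Figure D4:**
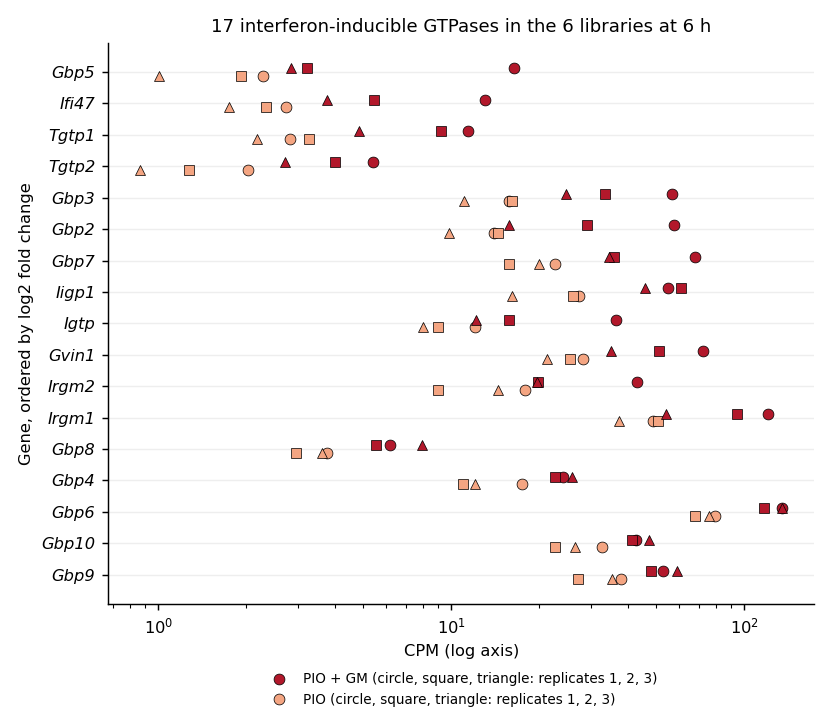
CPM on a log axis (x axis) of the 17 interferon-inducible GTPase genes (y axis, ordered by fold change) in the 6 libraries, with dark points for PIO + GM, light points for PIO and a symbol for each replicate. In every row the 3 dark points lie to the right of the 3 light points, and for Gbp5 and Ifi47 the circle of PIO + GM replicate 1 lies far from the others.

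Among the antiviral effectors, which act directly on viral RNA, entry or assembly, 43 of 44 tested genes had a log2 fold change above 0, with a median of 1.06. In the higher direction 28 had an unadjusted p under 0.05, against 1.16% of all genes, and 18 did not overlap between the groups, against 1.7%. Rsad2 (viperin, which makes a chain-terminating nucleotide) had the highest fold change of all 4 lists. It measured 158, 69.8 and 28.4 CPM in PIO + GM and 23.5, 10.8 and 16.9 CPM in PIO (2.32 ± 0.66, SE). The PIO + GM libraries spanned a wide range and the lowest was only just above the highest PIO library. Other IFIT genes lay on chromosome 19 beside Ifit2. Ifit3 measured 110, 54.1 and 20.5 CPM against 22.3, 13.2 and 11.9 CPM (1.97 ± 0.68, SE), so that replicate 3 fell within the PIO range. Ifit3b measured 57.9, 29.9 and 11.5 CPM against 10.3, 4.24 and 6.80 CPM (2.22 ± 0.65, SE), and Ifit1 had a fold change of 1.59. The Ifit3 and Ifit3b transcripts shared 40.7% and 35.3% of their 76-base stretches with another gene.

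Eif2ak2 (PKR, a kinase that halts translation on double-stranded RNA) showed a smaller and tighter difference. It measured 121, 90.9 and 117 CPM in PIO + GM against 72.7, 64.2 and 71.1 CPM in PIO (0.66 ± 0.16, SE). Its groups did not overlap. The OAS family, enzymes activated by double-stranded RNA, had fold changes of 1.01 for Oas3, 1.24 for Oas1b, 1.26 for Oas1g, 1.27 for Oas1a and 1.32 for Oas2. The OAS-like genes Oasl1 and Oasl2 were at 2.13 and 1.67. The GTPases Mx1 and Mx2, which block viral nucleocapsids, were at 1.54 and 1.32, and Mx2 did not reach an unadjusted p of 0.05. Members of the list with little difference were Ifitm2 (−0.11), Ifi27 (0.05) and Ifitm1 (0.15).

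The 11 genes of ISG15 conjugation and of the interferon-induced PARPs were all above 0, with a median of 0.90, 9 at an unadjusted p under 0.05 (1.16% of all genes) and 6 without overlap (1.7%). Isg15 measured 21.7, 9.23 and 5.67 CPM in PIO + GM and 5.00, 2.22 and 2.75 CPM in PIO (1.88 ± 0.57, SE; 95% interval 0.76 to 3.00). The lowest value with gentamicin was just above the highest without. Uba7 and Ube2l6, the activating and conjugating enzymes for ISG15, had fold changes of 0.93 and 0.60. Herc6, the mouse ligase that attaches it, measured 27.8, 12.1 and 15.8 CPM against 8.25, 6.46 and 7.02 CPM (1.36 ± 0.34, SE). Usp18, which removes ISG15 and restrains interferon signalling, measured 37.1, 18.9 and 8.65 CPM against 9.48, 5.08 and 4.85 CPM (1.74 ± 0.68, SE), and its groups overlapped. Parp14 measured 164, 76.6 and 46.9 CPM against 44.3, 32.0 and 30.2 CPM (1.44 ± 0.44, SE). Parp14 is followed on chromosome 16 by Dtx3l and Parp9, and Dtx3l was at 0.85. Parp11 showed the smallest value of the list, 0.14 ± 0.12 (SE).

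The nucleic acid sensors were mixed. The RNA helicases Ddx58 (RIG-I) and Ifih1 (MDA5) measured 0.90 ± 0.25 and 1.16 ± 0.36 (SE), and neither overlapped between groups. Ddx58 was at 110, 65.7 and 68.4 CPM in PIO + GM and 49.9, 34.1 and 47.0 CPM in PIO. The DNA-binding p200 family genes Ifi204, Ifi205 and Ifi211 were at 1.23, 1.74 and 1.43, again without overlap, and shared 20.6%, 45% and 63.3% of their stretches with other genes, so that their values are uncertain. By contrast the adaptors Mavs (−0.22) and Sting1 (0.07), the enzyme Cgas (0.47) and the endosomal receptors Tlr3 (0.26), Tlr7 (0.04), Tlr8 (0.58) and Tlr9 (0.79) did not reach an unadjusted p of 0.05, and nor did Aim2 (−0.29). Over the 17 genes the median was 0.90, 15 were above 0, 9 had an unadjusted p under 0.05 in the higher direction (1.16% of all genes) and 6 did not overlap (1.7%). Without PIO + GM replicate 1 the median of this list was 0.51.

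Upstream of these genes, the interferon receptors had fold changes near 0, and the ligands could not be tested. Of 13 genes for interferons and their receptors, 6 passed the filter on low counts, and the 7 that did not pass were all the interferon genes of the list, Ifnb1 and Ifng among them. The receptor genes Ifnar1, Ifnar2, Ifngr1 and Ifngr2 had fold changes of −0.09, 0.09, −0.04 and 0.04. Ifnar1 measured 166, 142 and 150 CPM in PIO + GM against 169, 144 and 174 CPM in PIO, and the groups overlapped. Its 95% interval ran from −0.26 to 0.08. Among the 32 STAT, IRF, SOCS and PIAS regulators, 3 were higher and 1 lower at an unadjusted p under 0.05, against 1.16% and 1.89% of all genes, and the median was −0.01. Irf9, a component of the ISRE-binding complex, measured 89.0, 65.5 and 49.9 CPM against 56.6, 40.7 and 43.0 CPM (0.54 ± 0.22, SE), and Irf2 was at 0.41. Irf2 was at 0.32 with the GC trend removed and no longer reached an unadjusted p under 0.05. Tyk2, a receptor-associated kinase, was at −0.49 ± 0.18 (SE). With the GC trend removed it was at −0.33 and still reached an unadjusted p under 0.05 in edgeR. Irf7, which amplifies type I interferon production, measured 33.9, 8.11 and 6.08 CPM against 10.9, 3.28 and 7.53 CPM (1.15 ± 0.61, SE). It reached an unadjusted p under 0.05 in edgeR only with the GC trend removed, at 1.20. Only PIO + GM replicate 1 lay outside the PIO range, and without it the fold change was −0.03.

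In the Toll-like receptor and NF-kB pathway 0 of 40 genes had an unadjusted p under 0.05 in edgeR, against 3.06% of all genes. The median was 0.04. Tlr4, the receptor for lipopolysaccharide, measured 29.0, 33.6 and 45.3 CPM in PIO + GM and 24.4, 37.7 and 34.0 CPM in PIO (0.16 ± 0.23, SE). Tlr2 measured 23.2, 17.0 and 13.8 CPM against 14.7, 19.5 and 12.7 CPM (0.21 ± 0.27, SE). The adaptors Myd88 and Tirap were at −0.14 ± 0.31 and 0.04 ± 0.17 (SE). In all 4 genes the groups overlapped. Pias1, an inhibitor of STAT signalling, measured 57.4, 84.0 and 83.8 CPM against 66.2, 75.4 and 65.8 CPM (0.12 ± 0.12, SE), and Irf3 was at −0.35 ± 0.18 (SE), and at −0.20 with the GC trend removed. The signs of Tlr4, Tlr2, Myd88, Tirap and Pias1 changed with the library left out or the GC trend removed, as given among the dependences on processing.

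Chemokines varied with single libraries. Of 34 chemokine genes 19 passed the filter on low counts, and over those the median was 0.58 and 3 had an unadjusted p under 0.05 in the higher direction, against 1.16% of all genes. Cxcl10, an interferon-induced attractant of T cells, measured 54.4, 33.3 and 2.43 CPM in PIO + GM and 7.90, 2.86 and 2.82 CPM in PIO (2.74 ± 0.81, SE). Replicates 1 and 2 were far above the PIO libraries and replicate 3 was below all of them. Ccl2, an attractant of monocytes, measured 56.8, 29.2 and 4.46 CPM against 6.05, 27.3 and 4.34 CPM (1.29 ± 0.87, SE), and its PIO replicate 2 was close to PIO + GM replicate 2. Ccl4 and Ccl5 were at 1.51 and 2.55, Ccl12 at 1.38, Ccl9 at 0.20 and Cxcl16 at 0.00, and all overlapped between groups. Without PIO + GM replicate 1 the median of the chemokine list was 0.04 and that of the cytokine list, 0.25 with all libraries, was −0.21. Among 22 tested cytokine genes 1 was higher at an unadjusted p under 0.05, against 1.16% of all genes, the death ligand Tnfsf10 (TRAIL) at 1.11 ± 0.48 (SE), which was at 1.07 and no longer reached that level with the GC trend removed. Tnf was at 0.89 ± 0.60 and Il16 at 0.39 ± 0.33 (SE).

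Schwann cell markers were distributed over the libraries in a related order. The summed level of 16 Schwann cell and glia markers was 3220, 1680 and 671 CPM in PIO + GM replicates 1 to 3 and 817, 2110 and 788 CPM in PIO, and that of 19 spiral ganglion neuron markers was 835, 647 and 498 against 471, 762 and 413 CPM. The sums overlapped between the groups, while 14 of the 16 Schwann cell and glia markers had a log2 fold change above 0 (median 0.55) and 16 of the 19 neuron markers did (median 0.59). Without PIO + GM replicate 1 these medians were −0.02 and 0.11. PIO + GM replicate 1 was thus highest both in these sums and in the interferon lists, and PIO replicate 2 was the highest PIO library in these sums but had the lowest mean over the 89 genes. Macrophage markers, 24 genes with none at 0 in any of the 6 libraries, summed to 130 to 178 CPM in PIO + GM and 98.5 to 208 CPM in PIO, with a median fold change of 0.01. Lymphocyte and neutrophil markers were nearly absent, with 2 of 13 tested and sums of 1.08 to 1.93 and 0.724 to 2.22 CPM. The part of these cells in the interferon and chemokine values was not tested.

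Antigen presentation genes, also interferon targets, were less uniform. In the list of MHC class I and peptide loading 12 of 21 genes were above 0, the median was 0.06 (−0.28 to 0.27 with a replicate left out) and 2 had an unadjusted p under 0.05 in the higher direction, against 1.16% of all genes. These were Nlrc5, the transactivator of class I genes (1.20 ± 0.49, SE), and H2-T24 (1.34 ± 0.62, SE). Nlrc5 measured 19.0, 5.46 and 5.27 CPM in PIO + GM and 2.90, 4.24 and 5.86 CPM in PIO, so that replicate 1 was the only one above the PIO range. The peptide transporter Tap1 was at 0.69 ± 0.40 (SE). With the GC trend removed it was at 0.76 and reached an unadjusted p under 0.05 in edgeR. Of its PIO + GM libraries only replicate 1 was above the PIO range. MHC class II genes had a median of −0.25 over 7 tested genes (−0.02 without PIO replicate 3 and −0.55 without PIO + GM replicate 1) and complement genes −0.06 over 20. Both lists had 0 at an unadjusted p under 0.05 in edgeR, against 3.06% of all genes.

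Genes of stress and cell death pathways, through which aminoglycosides are known to act on hair cells, had few members at a low p. Target genes of p53 (median 0.02, 35 tested), the integrated stress response (0.01, 31), the unfolded protein response (−0.05, 23), heat shock (0.03, 21) and aminoglycoside entry (−0.12, 21) had 0 genes at an unadjusted p under 0.05 in edgeR. Over all genes the share was 3.06%. Of the heat shock genes 1 lay above and 1 below without overlap, against 1.7% and 1.67% of all genes. In the p53 and the unfolded protein response lists 1 each lay below without overlap. The p53 target Ei24 measured 78.4, 79.1 and 80.8 CPM in PIO + GM and 93.1, 86.4 and 94.1 CPM in PIO (−0.20 ± 0.11, SE). With the GC trend removed Ei24 was at −0.30 and Cubn at −0.36. Both then reached an unadjusted p under 0.05 in edgeR, against 1.7% of all genes in the lower direction. Hsph1, a co-chaperone, measured 235, 237 and 275 CPM in PIO + GM and 186, 217 and 230 CPM in PIO (0.24 ± 0.14, SE). Ahsa1, an activator of HSP90, measured 66.7, 62.4 and 64.6 CPM against 73, 66.9 and 74.5 CPM (−0.15 ± 0.12, SE), and the small heat shock protein genes Hspb8 and Hspb1 were at −0.31 and −0.34 with overlap, the second at −0.04 with the GC trend removed. The BCL2 family and caspases had a median of 0.04, and the 2 of 31 genes at an unadjusted p under 0.05, both in the lower direction (1.89% of all genes), were the survival factor Bcl2l1 (−0.39 ± 0.15, SE) and its antagonist Bad (−0.45 ± 0.18, SE). Bcl2l1 measured 45.3, 36.4 and 31.5 CPM against 55.1, 37.4 and 55.9 CPM, with the group overlap resting on PIO replicate 2. With the GC trend removed Bcl2l1 was at −0.29 and Bad at −0.24, and Bad no longer reached that level. Oxidative stress genes under NRF2 control had a median of −0.09 (−0.01 without PIO replicate 3) with 1 of 33 at that level, the ferritin light chain Ftl1 (−0.40 ± 0.14, SE, and −0.23 with the GC trend removed). Immediate early genes had a median of 0.18 (−0.12 to 0.45 with a replicate left out) and 0 of 33 at that level. Their mean log2 CPM was 5.05, 4.95 and 3.59 in PIO + GM replicates 1 to 3, and 4.47, 4.52 and 4.65 in PIO. In the cell cycle list the replication licensing factor Cdc6 was at 0.60 ± 0.19 (SE) with 5.08, 6.50 and 6.08 CPM against 4.12, 3.81 and 3.69 CPM.

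Lists of organelle and metabolic genes tended to lie slightly below 0. In the lysosome list 36 of 48 genes were below 0 (median −0.12) and 4 had an unadjusted p under 0.05 in the lower direction, against 1.89% of all genes. Among them was Ctsd, the aspartic protease cathepsin D, at 378, 336 and 311 CPM in PIO + GM and 413, 378 and 468 CPM in PIO (−0.29 ± 0.13, SE). Genes for mitochondrial ribosomal proteins were below 0 in 57 of 78 (median −0.08), with 6 at an unadjusted p under 0.05 in the lower direction (1.89% of all genes) and 7 without overlap (1.67%). Mrps12 measured 12.5, 9.71 and 11.2 CPM against 17.3, 13.0 and 21.1 CPM (−0.62 ± 0.19, SE). Gentamicin binds bacterial ribosomes, from which mitochondrial ribosomes descend, and a link to these values was not tested. The median of this list was 0.03 in GM against CTRL at 6 h, with 44 of 78 genes above 0. In PIO + GM against PIO, nuclear genes for oxidative phosphorylation were below 0 in 55 of 74 (median −0.06). Of these, 2 were lower at an unadjusted p under 0.05 in edgeR. With the GC trend removed the medians were −0.12, −0.10 and −0.08, and 3 lysosome genes, 5 mitochondrial ribosomal protein genes and 0 oxidative phosphorylation genes were lower at an unadjusted p under 0.05 in edgeR, against 1.7% of all genes. Mrps12 was then at −0.45 and Ctsd at −0.23, and Ctsd, Ctsa, Mrps24, Mrpl14, Cox6a1 and Sdhc no longer reached that level. Without PIO + GM replicate 1 the medians were −0.17, −0.05 and 0.01. None of the 3 lists held a gene past the adjusted threshold.

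Pioglitazone was present in both groups, so that targets of its receptor were compared at the same dose. In the list of PPAR targets and lipid handling 32 of 40 tested genes were below 0 (median −0.11, and −0.22 to −0.03 with a replicate left out). In the lower direction 2 had an unadjusted p under 0.05, against 1.89% of all genes, the uncoupling protein gene Ucp2 (−0.49 ± 0.21, SE) and the acyl-CoA thioesterase Acot2 (−0.55 ± 0.25, SE). Ucp2 measured 27.4, 19.7 and 16.6 CPM in PIO + GM and 30.4, 19.7 and 39.7 CPM in PIO, and the groups overlapped. With the GC trend removed the median was −0.10, with Ucp2 at −0.40 and Acot2 at −0.49. Sterol and fatty acid synthesis genes had a median of −0.03, with the mevalonate pathway genes Mvk (−0.62 ± 0.25, SE) and Mvd (−0.35 ± 0.16, SE) at an unadjusted p under 0.05 in the lower direction. With the GC trend removed Mvk was at −0.41 and Mvd at −0.16, and Mvd no longer reached that level. Replication-dependent histone genes were below 0 in 39 of 46, as were 8109 of all 16317 genes, with 0 at that level in edgeR. Their median was −0.23, and −0.53 to −0.06 with a replicate left out. Their median GC content was 56.1%, against 50.8% over all genes. With the GC trend removed H2ac18 moved from −0.91 to −0.52, H2ac19 from −0.91 to −0.51, H3c8 from −0.82 to −0.51 and H2ac20 from −0.73 to −0.45. Genes of glycolysis and hypoxia had a median of −0.16, collagens −0.07, matrix proteases and their inhibitors 0.00, keratins −0.04 and cytosolic ribosomal proteins 0.03. Without PIO replicate 3 the median for glycolysis and hypoxia was 0.40, and without PIO + GM replicate 1 that for matrix proteases was −0.30.

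Markers of the sensory epithelium itself overlapped between the groups in their sums for hair cells. Summed hair cell markers were 904, 1340 and 1230 CPM in PIO + GM and 1230, 1320 and 790 CPM in PIO, and 13 of 31 genes were above 0 (median −0.04, and −0.26 to 0.13 with a replicate left out). Myo6, an unconventional myosin of the hair bundle base, measured 276, 405 and 466 CPM against 373, 394 and 299 CPM (0.11 ± 0.19, SE). In edgeR 0 were higher and 1 was lower at an unadjusted p under 0.05, against 1.16% and 1.89% of all genes, and 0 were lower at that level with the GC trend removed. The 1 was Gfi1, a transcription factor needed for hair cell survival, named after its value was seen, at 3.39, 3.85 and 2.84 CPM in PIO + GM and 7.37, 6.67 and 3.91 CPM in PIO (−0.81 ± 0.33, SE). In the supporting cell list 20 of 24 genes were below 0 (median −0.13, and −0.30 without PIO + GM replicate 2), 1 was lower at an unadjusted p under 0.05 (1.89% of all genes) and 4 lay below without overlap (1.67%). The 1 was the Notch target Hes5, also picked after its value was seen, at −2.52 ± 0.97 (SE). Gjb2, the connexin of supporting cells, measured 321, 217 and 341 CPM against 371, 239 and 748 CPM (−0.63 ± 0.31, SE). PIO replicate 3 stood far above all other libraries. With the GC trend removed Gjb2 was at −0.74 and reached an unadjusted p under 0.05 in edgeR. Summed supporting cell markers were 2260, 2970 and 2930 CPM in PIO + GM and 3520, 3160 and 2890 CPM in PIO, and overlapped. Sums of mesenchymal markers (5140 to 7040 against 5180 to 7600 CPM), endothelial markers (598 to 773 against 526 to 858 CPM) and stria and melanocyte markers (184 to 319 against 173 to 479 CPM) overlapped between groups.

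The lower direction was examined through the lists above and through its leading genes. By unadjusted p, the 5 lowest genes without overlap and at 1 log2 CPM or more were Rhov, 2310039H08Rik, Sigirr, Nat9 and Coq9, each at an adjusted p of 0.998 (edgeR). Sigirr, a receptor-like inhibitor of Toll-like receptor and interleukin-1 signalling, measured 3.64, 3.05 and 3.11 CPM in PIO + GM and 6.14, 4.13 and 6.22 CPM in PIO (−0.75 ± 0.21, SE). Rhov, a small GTPase, measured 1.95, 2.49 and 1.62 CPM against 4.48, 3.18 and 3.69 CPM (−0.89 ± 0.24, SE). Coq9, which serves coenzyme Q synthesis, measured 25.4, 22.4 and 20.7 CPM against 31.5, 27.3 and 35.7 CPM (−0.46 ± 0.14, SE). In these 3 genes PIO replicate 2 was the lowest PIO library. The remaining genes were 2310039H08Rik (−0.99) and Nat9 (−0.55). All 5 were rich in GC, at 55.6% to 59.4% against a median of 50.8% over all genes. With the GC trend removed Rhov was at −0.69, 2310039H08Rik at −0.80, Sigirr at −0.60, Nat9 at −0.44 and Coq9 at −0.37.

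The effect of gentamicin with pioglitazone was set beside its effect without it, in GM against CTRL at 6 h, which used other libraries. There, too, 0 genes passed the adjusted threshold in edgeR (0.0%) and 243 had an unadjusted p under 0.05 (1.49%). Over the 89 interferon-induced genes the median was 0.92, 85 were above 0 (49.7% of all genes), 53 had an unadjusted p under 0.05 in the higher direction (0.962% of all genes) and 47 did not overlap (3.14%). The antiviral effectors were at 0.98 against 1.06 with pioglitazone, the GTPases at 0.90 against 1.15, ISG15 conjugation and PARPs at 0.96 against 0.90 and the sensors at 0.75 against 0.90. Isg15 measured 9.51, 14.3 and 12.7 CPM in GM and 3.38, 5.38 and 1.20 CPM in CTRL, a log2 fold change of 1.88 in either setting. The value with pioglitazone was 1.17 to 2.30 with a replicate left out. Rsad2 measured 29.9, 66.4 and 63.9 CPM against 15.2, 22.3 and 5.27 CPM (1.91 against 2.32), and Irf7 14.6, 17.6 and 27.3 CPM against 5.15, 8.38 and 2.24 CPM (1.92 against 1.15). CTRL replicate 2 was the highest of its group in all 3 genes.

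The difference between these effects was itself tested. No gene passed the adjusted threshold in edgeR for the interaction (lowest adjusted p 1.0) and 293 had an unadjusted p under 0.05 (1.8%), with 0 of the 89 interferon-induced genes among them and a median difference of 0.06. That does not show that the effects were equal, since the intervals were wide: the difference ranged from −1.60 to 1.60 for Isg15, from −0.93 to 3.37 for Gbp5 and from −2.45 to 0.90 for Irf7 (95% intervals). For genes measured more tightly the intervals were narrower, from −0.46 to 0.59 for Gbp6 and from −0.70 to 0.49 for Parp9. MHC class I genes had a median of 0.40 in GM against CTRL, all 21 above 0, and 0.06 with pioglitazone (−0.28 without PIO + GM replicate 1), with 1 of 21 genes at an unadjusted p under 0.05 for the difference.

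**Figure D5:**
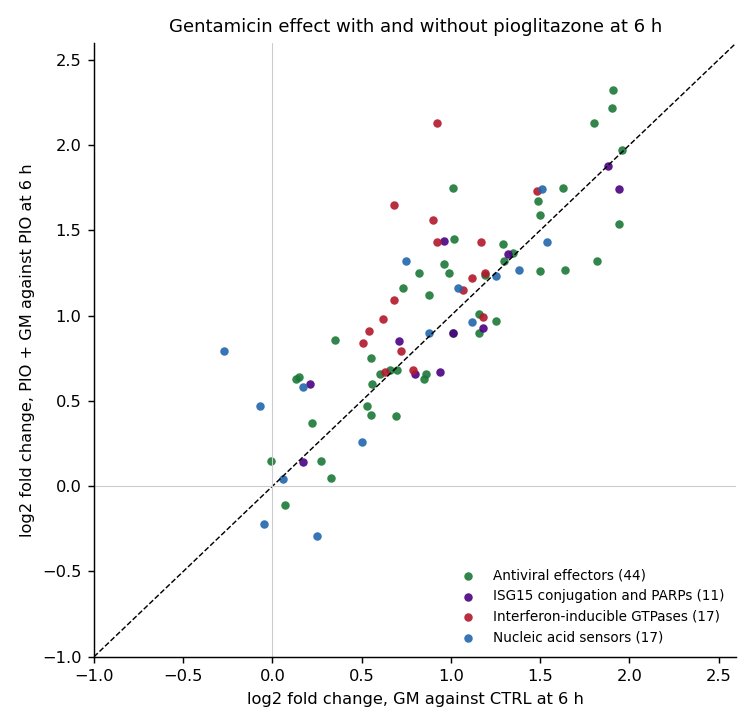
Log2 fold change of PIO + GM against PIO at 6 h (y axis) and of GM against CTRL at 6 h (x axis) for the 89 tested interferon-induced genes, coloured by list, with a dashed line where the values are equal. The points scatter around the line, with a median difference of 0.06 over the 89 genes and 0.26 over the GTPases.

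The genes with the lowest unadjusted p for this difference were of other kinds. Zfand2b, a zinc-finger protein that associates with the proteasome, measured 10.5, 9.15 and 9.19 CPM in PIO + GM and 12.3, 11.4 and 14.5 CPM in PIO, but 12.4, 12.1 and 13.5 CPM in GM and 10.7, 11.4 and 9.50 CPM in CTRL (difference −0.67 ± 0.18, SE). It was thus lower with gentamicin under pioglitazone and higher without it, although its fold change under pioglitazone, −0.41, was −0.24 with the GC trend removed. Sigirr was at 5.89, 3.71 and 4.90 CPM in GM and 4.75, 3.62 and 3.59 CPM in CTRL (difference −1.03 ± 0.30, SE). For 2310039H08Rik the difference was −1.28 ± 0.37 (SE). Both genes had lower values with gentamicin under pioglitazone. In GM against CTRL, Sigirr was at 0.28 (unadjusted p = 0.196, edgeR) and 2310039H08Rik at 0.29 (unadjusted p = 0.271, edgeR). The GM and CTRL libraries overlapped in both genes, so that a rise without pioglitazone was not established for them. In the opposite direction, Edn2, which encodes the vasoconstrictor endothelin-2, differed by 3.30 ± 0.95 (SE), with no library above 1.76 CPM and PIO replicate 2 at 0. Vmn1r90 (1.64) and the long noncoding RNA E230016K23Rik (2.97) were similarly scarce, the latter at 0.508, 1.20 and 2.30 CPM in PIO + GM and 0.351, 0.212 and 0 CPM in PIO. Each of these genes had an adjusted p of 1.0.

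At 24 h the interferon-induced genes were closer between the groups. Over all genes, 12 passed the adjusted threshold in PIO + GM against PIO at that time (0.0735%) and 423 had an unadjusted p under 0.05 (2.59%). The interferon-induced genes had a median of 0.22, 74 of 89 were above 0 (49.5% of all genes), 3 had an unadjusted p under 0.05 in the higher direction (1.84% of all genes) and 6 did not overlap (4.1%). Ifit2 measured 6.88, 5.83 and 7.44 CPM in PIO + GM and 5.01, 6.44 and 5.79 CPM in PIO at 24 h (log2 fold change 0.22). The difference from the effect at 6 h was 1.53 (95% interval 0.48 to 2.58; adjusted p = 1.0, edgeR). Parp9, Gbp4, Gbp6 and Trim12a had fold changes of 0.17, 0.08, 0.14 and 0.14 at 24 h. Over all genes 0 passed the adjusted threshold in edgeR for the difference between the times and 247 had an unadjusted p under 0.05 (1.51%), with 12 of the 89 among them. The lowest adjusted p was 0.0968, for Fer1l4, a member of the ferlin gene family. It measured 0.847, 1.93 and 0.946 CPM in PIO + GM and 1.14, 0.953 and 1.01 CPM in PIO at 6 h, and 2.52, 1.74 and 3.76 against 0.129, 0.195 and 0.286 CPM at 24 h. Here the gap was at the later time, as it was for Stpg3 (log2 fold change −0.09 at 6 h and 3.93 at 24 h) in the same direction. For Ermap it was already above 0 at 6 h (0.72) and larger at 24 h (3.23). The gap was also at 24 h, with lower levels in PIO + GM, for the potassium channel gene Kcnj13 (log2 fold change −0.01 at 6 h and −1.98 at 24 h), Atp10d and 4930558C23Rik.

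Finally, of the 18 genes named by the study, 15 were above 0 (50.3% of all genes; median 0.72), 6 had an unadjusted p under 0.05 in the higher direction (1.16%) and 4 did not overlap (1.7%). The median was 0.29 without PIO + GM replicate 1, 0.21 over the 14 genes with at least 10 counts in every library and 1.22 without the 3 libraries in which expression declined with GC content. The list was drawn from these samples and is not independent of them. Ifi44, a cytoplasmic interferon-induced protein, measured 38.3, 17.2 and 14.6 CPM in PIO + GM and 9.56, 6.14 and 5.14 CPM in PIO (1.75 ± 0.60, SE). The lowest PIO + GM library was above the highest PIO library.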

How the data were processed

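RNA from pools of OCs had been sequenced on a NextSeq 500 after TruSeq Stranded Total RNA preparation. The deposited values are raw counts per gene: the authors aligned with RNA-STAR (mm10 per the labels) and tallied with QuasR each read whose start lay in a RefSeq exon. Whether counting used the strand, and how reads with several matches were treated, is not given in the sources used here, so overlapping, antisense and near-identical genes are uncertain.

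Groups came from the labels. All 24 libraries were fitted with 8 group means in edgeR 4.0.16 (R 4.3.3; TMM factors, filterByExpr, quasi-likelihood test, Benjamini-Hochberg adjustment, threshold 0.05), leaving 16317 of 24454 genes (common biological coefficient of variation 0.225). CPM values use TMM-scaled library sizes, and log2 CPM adds a prior count of 2. Fold changes are log2, with 95% intervals from their SE. DESeq2 1.42.0 and limma-voom (limma 3.58.1) were alternatives, as were other scalings, filters, a replicate block, removal of the trend with GC content (known for 94.3% of tested genes), fewer libraries and leaving out each replicate. Replicates within PIO + GM and within PIO at 6 h differed by more than sampling noise in every pair. Data for this comparison with 15972 genes were simulated with the same spread for every gene (0.225) and no trend with GC content. There 46.9% of genes with a log2 change of 1 in size and 100% of those with 2 were recovered. Of 159 genes called, 11 were unchanged. In the measured data the spread differed between genes, and changes above 2 were not called, such as Rsad2 at 2.32 ± 0.66 (SE). Depth in the 24 libraries was 7211357 to 15548856 counts.

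Members and gene lists were chosen with earlier results of these data known. Named were the genes that the study names, the 5 genes in each direction with the lowest p among those that did not overlap and averaged at least 1 log2 CPM (none passed the threshold), up to 4 genes a list and up to 3 in each direction an interaction with the lowest p, up to 3 highest markers a list, and members of the 4 interferon-induced gene lists; the last addition was made after their values were seen. Promoters are from RefSeq. Analyses used Python 3.11.15. Some members of the lists are counted but not reported by name here.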

Additional observations from a re-analysis of the deposited data

How the results depend on the processing

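In PIO + GM against PIO, 0 genes passed the adjusted threshold under each edgeR setting, limma-voom and every omission of a replicate, and 1 with DESeq2. For the difference from GM against CTRL it was 0 under every alternative. For the gentamicin effect at 6 h against 24 h the count was 0, 6 with edgeR's likelihood ratio test, and 0 to 1 with a replicate left out. Genes at an unadjusted p under 0.05 (190 higher, 309 lower) numbered 332 and 293 without a filter, 108 and 294 with at least 10 counts in every library, 145 and 68 with the 12 libraries at 6 h, 101 and 16 with the 6 libraries, and 150 to 1498 and 107 to 1962 with a replicate left out. The interferon medians with a replicate left out were 0.61 to 1.24 (antiviral effectors), 0.57 to 1.08 (ISG15 and PARPs), 0.83 to 1.35 (GTPases), 0.51 to 1.11 (sensors) and 0.67 to 1.19 (together). Without the 3 libraries lowest with GC, an omission chosen after seeing the data, they were 1.63 for antiviral effectors, 1.55 for GTPases and 1.54 together, with 847 genes higher and 530 lower. Replicate numbers did not pair the samples (correlations of deviations 0.02, 0.33 and −0.18). With the replicate block 341 genes were higher and 538 lower at an unadjusted p under 0.05, 0 passed the adjusted threshold, and the median over the 4 lists was 0.95. The counts were 308 and 489 with the GC trend removed as well, and with the 6 libraries and the block 99 and 9. Single genes near 0 changed sign. Cxcl16 was at 0.02 with DESeq2 size factors and with DESeq2, 0.01 without a filter, 0.32 without the 3 libraries and −0.18 to 0.09 with a replicate left out. Without the 3 libraries Tlr4 was at −0.02, Tirap at −0.05, Myd88 at 0.39 and Pias1 at −0.21, and Pias1 was at −0.02 with the GC trend removed and −0.01 with the block added. With a replicate left out Irf7 ranged from −0.03 to 1.56, Ccl9 from −0.20 to 0.59, Tlr4 from −0.03 to 0.30, Tlr2 from −0.01 to 0.40, Tirap from −0.07 to 0.24 and Myd88 from −0.73 to 0.17. Isg15 then ranged from 1.17 to 2.30, Gbp2 from 0.83 to 1.76, Usp18 from 1.10 to 2.13 and Ccl2 from 0.47 to 2.55. The cause was not tested. At this depth, genes near 1 CPM rest on few reads.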
